A study of Rattus norvegicus with 18 samples.

Results

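Messenger RNA levels of 7 genes that control mRNA decay were measured in rat heart cells treated briefly with a myosin inhibitor. They are the ZFP36 family genes Zfp36, Zfp36l1 and Zfp36l2 (ZFP36, ZFP36L1 and ZFP36L2 in the table) and the BTG/TOB family genes Btg1, Btg2, Tob1 and Tob2 (BTG1, BTG2, TOB1 and TOB2). All 7 were chosen by name, with earlier results of these data known. They were found among the 28909 genes of the deposited RNA table and passed the filter on low values. Ventricular cells, labelled cardiomyocytes, of wild-type Sprague-Dawley (SD) rats, 1 day old, received blebbistatin, an inhibitor of the myosin II motor ATPase, for 0.5 h (3 libraries) or its solvent DMSO for 0.5 h (3 libraries). The treatment label gives 25 µM blebbistatin, while the design text gives both 25 and, for the RNA libraries, 0.25 of the same unit written in lower case. Cells of both groups had been pre-plated to remove faster-attaching cells, kept on collagen and moved after 24 h to medium with 0.25% serum. Nothing in the labels says that replicate libraries were made from different cell isolations, and the p-values reflect only library-to-library spread, which may be technical. Levels are given in CPM, counts divided by the library total and brought to a common sum, a scale that does not correct for transcript length, so the size of a ratio between genes has no meaning here and only its difference between groups is read.

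The ZFP36 proteins carry a tandem zinc finger that binds AU-rich elements in the 3′ untranslated region of short-lived transcripts, and they recruit the CCR4-NOT complex, which shortens the poly(A) tail. The BTG and TOB proteins have no such RNA-binding domain and bind the CCR4-NOT nucleases directly through their BTG domain. Zfp36 and Btg2 are also known as immediate early genes (old names Tis11 and Tis21), transcribed within minutes of serum or growth factor stimulation, and the BTG/TOB proteins are known to restrain cell proliferation.

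The promoters of Zfp36 and Btg2 are shown because these 2 genes had the lowest p-values of the 7. Their profiles over the libraries were also similar, by a measure that includes the difference between groups. Both are RefSeq sequences of the GRCr8 assembly, from 250 bases before to 50 bases after the annotated gene start, written 5′ to 3′ along the gene. Zfp36 lies on chromosome 1 (chr1:92799059-92799358, minus strand) and Btg2 on chromosome 13 (chr13:48087641-48087940, minus strand). Capitals mark a CArG box in Zfp36, the sequence type bound by serum response factor, and the palindromic cAMP response element in Btg2.
Zfp36: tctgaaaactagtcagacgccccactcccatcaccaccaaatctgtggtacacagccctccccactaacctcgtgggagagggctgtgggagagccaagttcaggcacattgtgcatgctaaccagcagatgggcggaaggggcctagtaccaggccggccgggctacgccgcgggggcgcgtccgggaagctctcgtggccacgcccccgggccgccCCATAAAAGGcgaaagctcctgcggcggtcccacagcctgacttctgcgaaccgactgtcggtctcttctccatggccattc
Btg2: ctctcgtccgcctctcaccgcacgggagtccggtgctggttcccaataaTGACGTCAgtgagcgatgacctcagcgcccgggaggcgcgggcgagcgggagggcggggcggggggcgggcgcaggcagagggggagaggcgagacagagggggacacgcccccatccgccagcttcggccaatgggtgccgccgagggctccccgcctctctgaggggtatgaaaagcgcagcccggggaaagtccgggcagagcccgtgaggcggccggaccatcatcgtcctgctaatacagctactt

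A search of both strands found the CArG box in 1 of the 7 promoters, that of Zfp36, where CCATAAAAGG starts 32 bases before the annotated start and shares 1 base with a GGGCGG match on the other strand. Among 33469 rat promoters of the same length 1.64% held a CArG box. The element TGACGTCA occurred in 1 of the 7, Btg2, starting 201 bases before the start, and in 1.83% of all promoters. The AP-1 sequence TGAGTCA had no match in the 7 windows and was found in 4.63% of all promoters. TATAAA was searched only as an exact sequence, so variants such as the ATAAAA within the CArG match of Zfp36 were not counted. It matched in Zfp36l1 and Tob1 (14.2% of all promoters), and GGGCGG, the core of the GC box, in Zfp36, Zfp36l2, Btg1 and Btg2 (33.1%). These matches describe letters in a window and show no binding.

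None of the 7 genes passed the test over all 15204 genes (limma, Benjamini-Hochberg adjusted p under 0.05), a rule met by 3 genes, 0.0197% of those tested (0.0132% lower and 0.00658% higher in blebbistatin). At an unadjusted p under 0.05 there were 2 of the 7, Zfp36 and Btg2, both with less mRNA in blebbistatin, where 1.52% of all genes met that rule in either direction, 0.776% in this direction and 0.743% in the other. That count stayed at 2 with each library left out in turn, while the share over all genes ran from 0.888% without blebbistatin replicate 3 to 6.08% without DMSO replicate 3. In 3 of the 7, Zfp36, Btg2 and Zfp36l1, every blebbistatin library lay below every DMSO library, a pattern found for 2.89% of all genes. For 3.24% every blebbistatin library lay above, and 6.13% were apart in either direction. The other 4 overlapped. Of the 7 log2 fold changes, 5 were negative and 2 positive, with a median of -0.12, against a median of 0.0040 and 49.3% negative values over all genes. The median of the 7 was -0.041 without DMSO replicate 1, -0.059 without blebbistatin replicate 1 and between -0.17 and -0.14 without any other single library. Because the 7 were chosen with earlier results of these data known, their counts and median are no independent evidence beside the values over all genes.

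**Figure D1:**
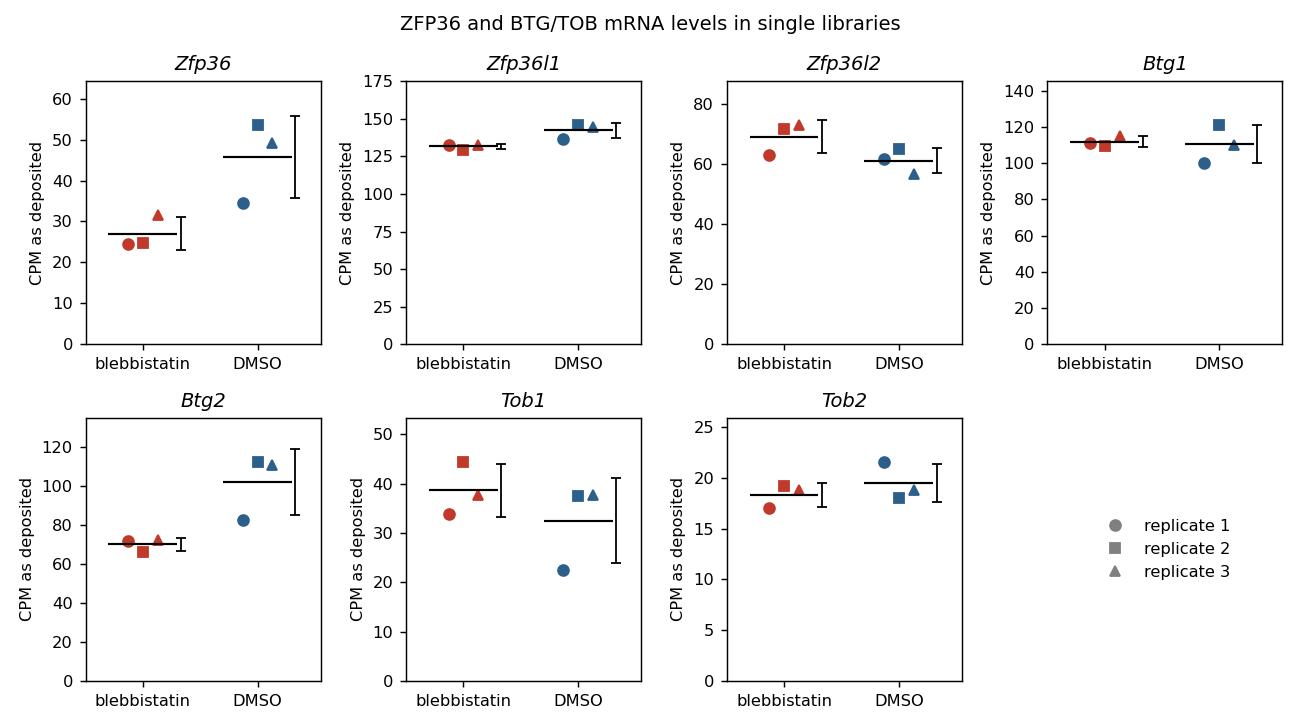
Deposited CPM of the 7 genes (vertical axes, from 0) in the 3 blebbistatin and 3 DMSO libraries; points are single libraries, horizontal lines group means and bars 1 SD. The blebbistatin libraries of Zfp36 (24.5 to 31.6 CPM) lie below its DMSO libraries (34.6 to 53.6 CPM), as they do for Btg2 and, by a small margin, for Zfp36l1.

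Zfp36 encodes tristetraprolin, the family member best known for destabilising cytokine transcripts. It was at 24.5, 24.8 and 31.6 CPM in blebbistatin replicates 1, 2 and 3, against 34.6, 53.6 and 49.2 CPM in DMSO replicates 1, 2 and 3. The groups did not overlap, and the lowest DMSO library was replicate 1. After scaling by TMM factors, which adjust for library composition, its level was 26.6 ± 3.98 CPM in blebbistatin and 46.1 ± 8.03 CPM in DMSO (SD, n = 3 each), so that the blebbistatin mean was 57.7% of the DMSO mean. The log2 fold change was -0.79 ± 0.18 (SE; 95% interval -1.20 to -0.37), with a limma unadjusted p of 0.00278, the 18th lowest of all genes, and a limma adjusted p of 0.991. The rank depended on single libraries: it was 52, 41 and 20 without blebbistatin replicates 1, 2 and 3. It was 18, 49 and 60 without DMSO replicates 1, 2 and 3, and 63 without limma's variance trend.

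Zfp36l1 encodes a paralog with the same zinc finger type and known roles in development and in lymphocytes. Its blebbistatin libraries were at 133, 129 and 133 CPM and its DMSO libraries at 137, 146 and 145 CPM. In the deposited values the groups were apart by a narrow gap, and the spread within each was small. After TMM scaling the gap was 10.7 CPM. TMM-scaled levels were 129.9 ± 0.837 CPM in blebbistatin and 144 ± 3.02 CPM in DMSO (SD, n = 3 each). The log2 fold change of -0.15 ± 0.11 (95% interval -0.41 to 0.10) did not pass, with a limma unadjusted p of 0.200.

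Zfp36l2, the third paralog, known for its need in oocyte maturation and blood cell formation, was at 62.9, 71.7 and 73.1 CPM in blebbistatin and at 61.8, 65.1 and 56.8 CPM in DMSO. The groups overlapped. Its log2 fold change was 0.14 ± 0.13 (95% interval -0.18 to 0.45), so neither a loss as large as the estimate for Zfp36 nor one as large as that for Btg2 lies within its interval.

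Btg2 encodes an antiproliferative protein that is also a known p53 target. Its blebbistatin libraries were at 71.6, 66 and 72.3 CPM, against 82.6, 112 and 111 CPM in DMSO. All 3 blebbistatin values were below all 3 DMSO values, and DMSO replicate 1 was again the lowest of its group. The TMM-scaled level was 69 ± 2.63 CPM in blebbistatin and 102.8 ± 12 CPM in DMSO (SD, n = 3 each), a blebbistatin mean at 67.1% of the DMSO mean. The log2 fold change was -0.57 ± 0.13 (95% interval -0.88 to -0.26), with a limma unadjusted p of 0.00302, the 19th lowest, and a limma adjusted p of 0.991. Its rank was 46, 43 and 38 without blebbistatin replicates 1, 2 and 3, 17 without DMSO replicate 1, and 65 and 87 without DMSO replicates 2 and 3.

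Btg1, the closest relative of Btg2, was at 111, 109 and 115 CPM in blebbistatin and at 100.05, 121 and 110.1 CPM in DMSO. The blebbistatin libraries fell inside the DMSO range. The log2 fold change of -0.016 ± 0.11 had a 95% interval of -0.28 to 0.25, and its sign depended on the scaling: it was 0.023 with library-size scaling.

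Tob1 and Tob2 encode the longer proteins of the family, which also bind the cytoplasmic poly(A)-binding protein. Tob1 was at 33.8, 44.5 and 37.6 CPM in blebbistatin and at 22.5, 37.5 and 37.6 CPM in DMSO, where replicate 1 stood below all 5 other libraries. Its log2 fold change was 0.24 ± 0.21 (95% interval -0.25 to 0.72) and 0.036 without DMSO replicate 1. Tob2 was at 17, 19.2 and 18.8 CPM in blebbistatin and at 21.6, 18 and 18.8 CPM in DMSO, with the highest value in DMSO replicate 1. Its log2 fold change was -0.12 ± 0.16 (95% interval -0.49 to 0.25) and -0.00097 without that library.

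**Figure D2:**
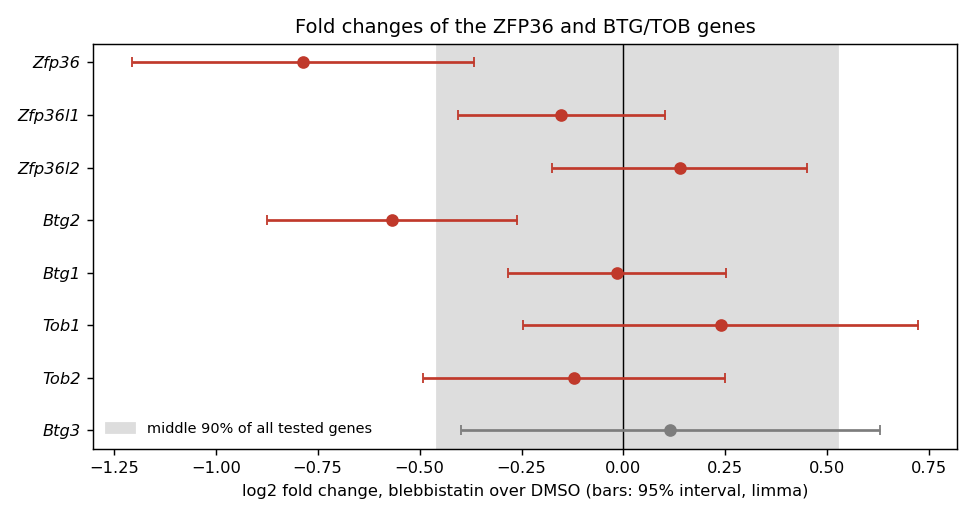
Log2 fold changes of blebbistatin over DMSO (horizontal axis) with 95% limma intervals for the 7 genes and the relative Btg3 (grey); the shaded band holds the middle 90% of all 15204 tested genes, from -0.46 to 0.53. Zfp36 at -0.79 and Btg2 at -0.57 lie outside the band, and the other 6 genes inside it.

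Over all genes, DMSO replicate 1 lay far from the rest, at -77.4 on the first principal component (42% of the variance), against -3.04 to 34.6 for the other 5. Those 5 were not alike: blebbistatin replicate 1 and DMSO replicate 3 lay at 34.6 and 33.9, the remaining libraries between -3.04 and 7.82. The summed level of 11 macrophage and leukocyte markers was 175 to 199.8 CPM in the blebbistatin libraries, 94.4 CPM in DMSO replicate 1 and 166.6 and 195 CPM in the other DMSO libraries. None of these 11 markers was at 0 in all libraries. Other lists were highest in the same library: 5 red blood cell markers, with Hbe1 at 0 throughout, summed to 26.4 to 31.2 CPM in blebbistatin, 72.5 CPM in DMSO replicate 1 and 28.9 and 29.1 CPM in the other DMSO libraries. The 8 endothelial markers summed to 179.7 to 201 CPM in blebbistatin, 241 CPM in DMSO replicate 1 and 185 and 201 CPM in the other DMSO libraries. All 4 tested red blood cell genes had negative log2 fold changes, with a median of -0.55, and none had an unadjusted p under 0.05. The 14 measured cardiomyocyte markers summed to 31599 to 33751 CPM in blebbistatin and 31669 to 33906 CPM in DMSO. Their mean log2 level, in which each gene weighs the same, was 9.35 to 9.69 in blebbistatin, 8.95 in DMSO replicate 1 and 9.40 and 9.66 in the other DMSO libraries, and 9 of the 14 log2 fold changes were positive, with a median of 0.17. The 12 fibroblast markers summed to 43601 to 49178 CPM in blebbistatin and 43751 to 50537 CPM in DMSO, and no marker of either list was at 0 in all libraries. Of the 12 fibroblast log2 fold changes 10 were negative (median -0.072), and of the 11 macrophage and leukocyte ones 9 were positive (median 0.27). Of the 8 endothelial ones 5 were negative (median -0.21), and the smooth muscle and pericyte ones split 4 and 4. None of these genes had an unadjusted limma p under 0.05. The 8 smooth muscle and pericyte markers summed to 7053 to 7587 CPM in blebbistatin and 6493 CPM in DMSO replicate 1. In the other DMSO libraries they summed to 7290 and 7354 CPM. Their mean log2 level was 8.24 to 8.37 in blebbistatin, 8.49 in DMSO replicate 1 and 8.35 and 8.25 in the other DMSO libraries. In bulk RNA, fewer cells of a type and less RNA per cell cannot be told apart, and the part of cell composition in the values of the 7 genes was not tested. Without DMSO replicate 1 the log2 fold change of Zfp36 was -0.93 (limma unadjusted p = 0.000249, adjusted p = 0.21) and that of Btg2 -0.67 (limma unadjusted p = 0.000226, adjusted p = 0.202), both larger in size than with all 6 libraries. DMSO replicate 1 was the lowest DMSO library for both genes, so its removal enlarges their fold changes whatever made it low.

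**Figure D3:**
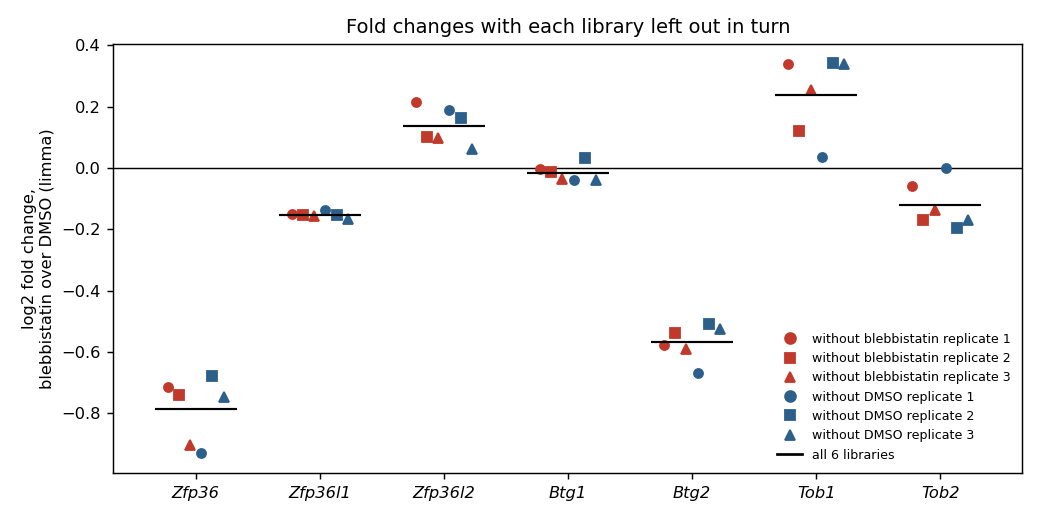
Log2 fold changes of blebbistatin over DMSO (vertical axis) for the 7 genes with each of the 6 libraries left out in turn (points; red for a blebbistatin and blue for a DMSO library) beside the value with all 6 (lines). Zfp36 stays between -0.93 and -0.68 and Btg2 between -0.67 and -0.51, while Tob1 runs from 0.036 to 0.34 and Btg1 takes both signs.

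Whether Zfp36 and Btg2 differed from their own paralogs was asked with log2 ratios within each library, in which the scaling between libraries cancels but for the pseudocount. The log2 level of Zfp36 minus the mean of Zfp36l1 and Zfp36l2 was -1.89, -1.96 and -1.64 in the blebbistatin libraries, against -1.41, -0.86 and -0.88 in the DMSO libraries. The groups did not overlap. The mean ratio was -1.83 ± 0.17 in blebbistatin and -1.05 ± 0.31 in DMSO (SD, n = 3 each), a difference of -0.78 with an exact two-sided permutation p of 0.1, the smallest that 3 against 3 libraries can give.

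For Btg2 minus Btg1 the log2 ratio was -0.63, -0.73 and -0.67 in blebbistatin and -0.28, -0.11 and 0.0074 in DMSO. Again the groups did not overlap. The difference between the means was -0.55 (exact two-sided permutation p = 0.1, also the smallest possible). Tob1 minus Tob2 was at 0.99, 1.21 and 1.00 in blebbistatin and at 0.057, 1.05 and 1.00 in DMSO, where replicate 1 alone stood low. That difference was 0.36 (exact two-sided permutation p = 0.5) and 0.037 without DMSO replicate 1. Over the 3 comparisons the Benjamini-Hochberg adjusted permutation p was 0.15, 0.15 and 0.5, so none passed 0.05, nor could any have done so in this design. The differences of -0.78 and -0.55 largely repeat the log2 fold changes of Zfp36 (-0.79) and Btg2 (-0.57). Zfp36l1, Zfp36l2 and Btg1 had -0.15, 0.14 and -0.016. Zfp36 and Btg2 were chosen with earlier results of these data known, so the ratios and their non-overlap are no independent evidence.

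**Figure D4:**
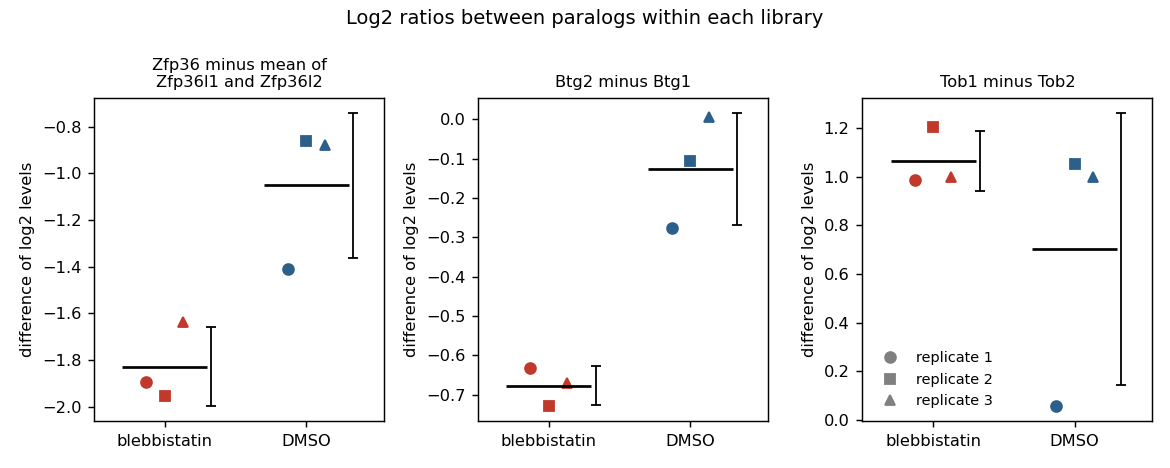
Differences of log2 levels between paralogs within each library (vertical axes) for blebbistatin and DMSO; points are libraries, lines means and bars 1 SD. The blebbistatin points lie below all DMSO points for Zfp36 against its paralogs and for Btg2 against Btg1, but not for Tob1 against Tob2.

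The relatives Btg3, Btg4 and Zfp36l3, outside the 7 genes, were in the table. Btg3, which also binds the CCR4-NOT nucleases, was at 60.6, 51.1 and 50.3 CPM in blebbistatin and at 32.3, 56.1 and 62.5 CPM in DMSO, with overlapping groups and a log2 fold change of 0.11 ± 0.22. Btg4, known from oocytes, and Zfp36l3, a rodent gene known from placenta, were listed at 0 in all 6 libraries. No other RefSeq gene overlaps any of the 7 genes or Btg3 in the GRCr8 table.

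The genes with the profile most like that of Zfp36 were found by the root-mean-square difference of centred log2 levels over the 6 libraries, among 11209 genes with a symbol and a mean log2 level of at least 1. They were Dusp1, a MAP kinase phosphatase (0.093), Fosb, an AP-1 subunit (0.113), and Lcp2, an adaptor of immune cell receptors (0.147), where Zfp36 itself spanned 1.15 log2 units. Btg2 came 7th in that order, at 0.159. Closest to Btg2 were the cytokine gene Lif (0.0828), Errfi1, a feedback inhibitor of ERBB receptors (0.0871), and the polo-like kinase gene Plk2 (0.0977), with Zfp36 in 11th place. Btg2 spanned 0.747 log2 units. The group means were not removed before these distances were taken, so a small distance requires a similar difference between groups. Dusp1, Fosb and Lcp2 had log2 fold changes of -0.90, -0.83 and -0.625, beside -0.79 for Zfp36. The likeness of profiles is therefore no evidence separate from the fold changes. For Tob1 the nearest gene was Yaf2 at 0.0409, for Zfp36l1 Rell1 at 0.0258, for Zfp36l2 Acox3 at 0.0348, for Tob2 Epb41l3 at 0.0286 and for Btg1 Rara at 0.00565.

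Lists of decay factors, other RNA-binding proteins, partners of the 7 proteins and ZFP36-bound transcripts were read from the same fit. Limma called 0 members of the 7 lists below, and of their 115 distinct tested genes together 8 were lower and 2 higher at an unadjusted p under 0.05 (8.70%, against the 1.52% over all genes), while 7 were lower and 3 higher with groups apart (8.70%, against 6.13%). Of the 10 at an unadjusted p under 0.05, 7 belong to the list of ZFP36-bound transcripts. Several genes of that list were already known to be lower in these libraries when it was drawn up. The excess of 8.70% over 1.52% is therefore no independent evidence. The 12 genes of the CCR4-NOT list had a median log2 fold change of -0.074 and ran from -0.28 to 0.20, with none at an unadjusted p under 0.05. With single libraries left out the median ran from -0.093 without DMSO replicate 3, where 1 gene was lower at an unadjusted p under 0.05, to -0.025 without DMSO replicate 1. Without DMSO replicate 3, 6.08% of all genes met that rule in either direction. Its 3 lowest p-values were those of Tnks1bp1, a protein found with the complex (-0.28 ± 0.18), the nuclease gene Cnot6 (-0.26 ± 0.20) and the subunit gene Cnot3 (0.20 ± 0.15). Cnot3 was at 52, 49.5 and 50.2 CPM in blebbistatin and at 32.9, 49.4 and 48.8 CPM in DMSO, so that its groups were apart by less than the spread in DMSO. Among the 3 genes of lowest p in each list, Cnot3, Cnot6, Pan3, Dcps, Dcp1b, Exosc7, Zc3h12c and Ywhae overlap another RefSeq gene. Their values are uncertain because the strand setting of the counting is not known. Lif, Pim1, Ptgs2 and Irf1, named below, were not checked for overlaps.

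Among 10 genes of the PAN2-PAN3 complex, other deadenylases, poly(A)-binding proteins and terminal transferases, 1 had an unadjusted p under 0.05. This was Noct, which encodes nocturnin, a protein of the deadenylase family now known to act on NADP(H) and itself an immediate early and clock-controlled gene. It was at 10.8, 18.2 and 15.6 CPM in blebbistatin, against 24.4, 25.5 and 24.5 CPM in DMSO. Every blebbistatin library was below the DMSO libraries, which lay close together. Its log2 fold change was -0.81 ± 0.21 (limma unadjusted p = 0.00622, adjusted p = 0.991). Tut7 and Pan3 followed with -0.23 ± 0.17 and -0.20 ± 0.16, and the list's median was -0.12, and it was -0.23 when DMSO replicate 3 was left out and -0.031 when DMSO replicate 1 was. With any single library left out, 1 gene of the list was lower at an unadjusted p under 0.05. The share over all genes in those fits, in either direction, ran from 0.888% to 6.08%.

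The 17 decapping and 5′-3′ decay genes had a median of -0.020, which took both signs with single libraries left out (-0.020 to 0.11). They had no unadjusted p under 0.05 with all libraries and 1, higher, when DMSO replicate 3 was left out. In the fit without DMSO replicate 3, 6.08% of all genes met that rule in either direction. With all libraries Dcps, Dcp1b and Lsm2 had log2 fold changes of 0.26 ± 0.17, 0.24 ± 0.18 and 0.26 ± 0.19. In the 15 genes of the RNA exosome and SKI complex the median was 0.19 and 10 values were positive. The exosome subunit gene Exosc6 was at 7.28, 7.78 and 8.79 CPM in blebbistatin and at 5.49, 6 and 6.14 CPM in DMSO, with a log2 fold change of 0.39 ± 0.17 (limma unadjusted p = 0.0496, adjusted p = 0.991). Wdr61 and Exosc7 had 0.47 ± 0.24 and 0.46 ± 0.30, both lowest in DMSO replicate 1. Without that library the list's median was 0.10, without blebbistatin replicate 2 it was 0.36 and 0.40 in the absence of DMSO replicate 3. That last fit had 3 higher genes at an unadjusted p under 0.05, where 6.08% of all genes met that rule in either direction. The fits without any other single library had 0 genes of the list.

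Of 20 other RNA-binding proteins of mRNA stability, Cpeb4, which controls poly(A) tail length in the cytoplasm, had a log2 fold change of -0.38 ± 0.16 (limma unadjusted p = 0.0492, adjusted p = 0.991), with overlapping groups. Zc3h12c, of the regnase family, and Samd4b, a Smaug homolog, had -0.46 ± 0.25 and -0.51 ± 0.31. The median of this list was -0.064, with -0.013 without DMSO replicate 1, -0.12 without blebbistatin replicate 2 and -0.19 in the absence of DMSO replicate 3. That last fit had 4 lower genes at an unadjusted p under 0.05, where 6.08% of all genes met that rule in either direction. The fits without any other single library had 0 genes of the list. The 12 genes of the p38-MK2 pathway, which phosphorylates and inactivates tristetraprolin, and of other partners of the 7 proteins ran from -0.15 to 0.12, with a median of -0.020 that also took both signs (-0.092 when DMSO replicate 3 was left out, 0.011 when DMSO replicate 1 was). Ywhae, Skp2 and Ppp2ca had the lowest p-values of that list, at 0.12 ± 0.15, -0.12 ± 0.15 and -0.10 ± 0.13.

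Transcripts known to be bound by ZFP36 family proteins were a list of 32 genes in the table, of which 29 were tested; Il6, Csf2 and Il10 were below the filter. In this list 20 log2 fold changes were negative and 9 positive, with a median of -0.13. At an unadjusted p under 0.05 there were 6 lower genes, Fos, Plk2, Dusp1, Lif, Pim1 and Ptgs2, and 1 higher, Irf1. Over all genes 0.776% were lower and 0.743% higher by that rule. Fos, the AP-1 subunit gene, was at 10.3, 11.6 and 11.1 CPM in blebbistatin and at 26.9, 26.6 and 27.7 CPM in DMSO, and had the lowest p of the list (limma adjusted p = 0.0593). Plk2 was at 209, 216 and 214 CPM in blebbistatin against 296, 363 and 359 CPM in DMSO, and Dusp1 at 60.1, 62.4 and 68.1 CPM against 89.2, 140.8 and 121 CPM. In both genes, as in Zfp36 and Btg2, DMSO replicate 1 was the lowest DMSO library and still above every blebbistatin library. Several of these genes were already known to be lower in these libraries when the list was drawn up, so their count is no independent evidence of direction. Without DMSO replicate 1, 10 were lower and 0 higher at an unadjusted p under 0.05, where 1.58% of all genes met that rule. Without any other single library the lower genes numbered 5 or 6 and the higher genes 0 to 2. In those fits the share over all genes, in either direction, ran from 0.888% to 6.08%, the highest without DMSO replicate 3. The list's median was -0.17 when DMSO replicate 1 was left out and -0.051 when DMSO replicate 2 was.

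**Figure D5:**
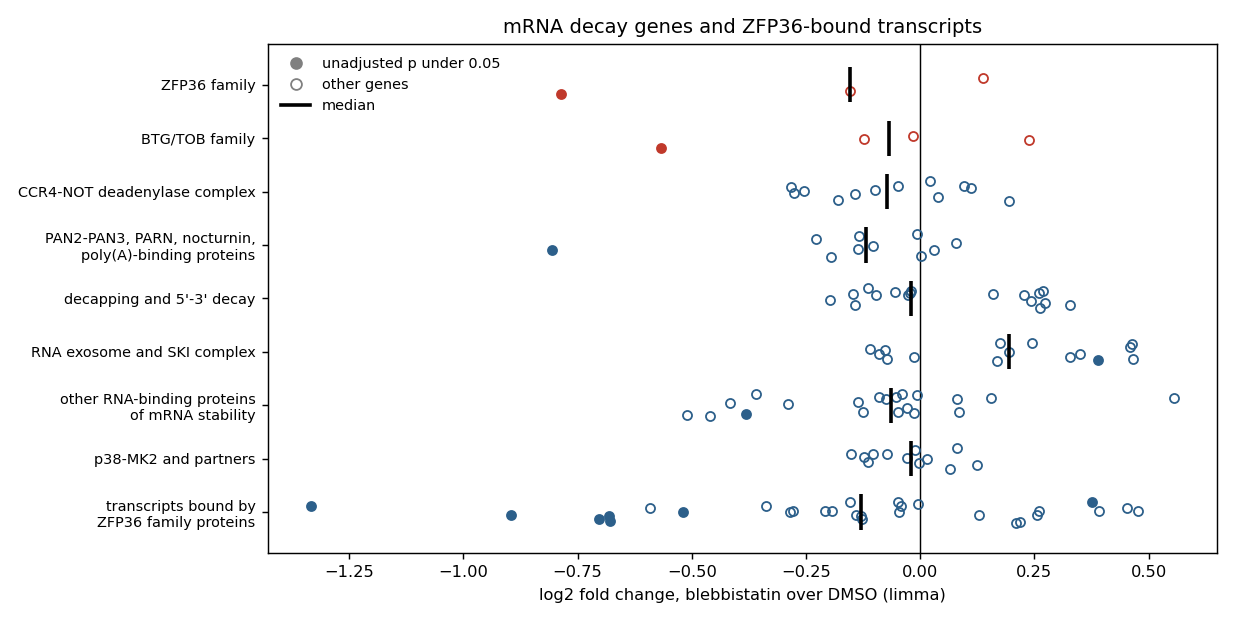
Log2 fold changes of blebbistatin over DMSO (horizontal axis) for the 7 genes, split by family (red), and for 7 lists of decay factors, partners and bound transcripts (blue); each point is a gene, filled where the unadjusted limma p is under 0.05, and black ticks are medians. Filled points on the left are Zfp36, Btg2, Noct, Cpeb4 and 6 bound transcripts, with Fos farthest out at -1.33.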

How the data were processed

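RNA of 6 libraries was analysed. Another 12 samples, of chromatin immunoprecipitation and its input, were not used here. Per the submitters' processing notes, Trim Galore, MACS2 2.1.0, BWA, edgeR 3.20.9, HISAT2 2.1.0, StringTie 1.3.4 and build rn6 were used; which of them made the table, and with what annotation or strandedness, is not given in the sources used here. The authors deposited CPM values, although the table is named for counts. Within a library 99.1 to 99.2% of values above 0 were multiples (tolerance 0.02) of 1 step, whose size was 0.0158 to 0.0168 CPM (59.6 to 63.3 M steps per library). The reads behind a step are not known, so no counting interval is given.

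Genes with at least 0.162 CPM (10 steps at the median) in 3 libraries were kept (15204). Log2(CPM divided by a TMM factor + 0.1) was tested with limma 3.58.1 in R 4.3.3 (trend and robust settings, two-sided, no block, Benjamini-Hochberg adjustment over all genes); TMM factors were computed without weights and ran from 0.928 to 1.03. Fold changes are on this log2(CPM + 0.1) scale. Means ± SD are TMM-scaled, and single-library values are as deposited. Paralog ratios were compared by exact permutation with scipy 1.17.1. Genes named beside the 7 are Btg3, Btg4 and Zfp36l3, the 3 with the lowest p of each list and those of nearest profile (the first is given for 5 of the 7, all 3 for Zfp36 and Btg2); Lif, Pim1, Ptgs2 and Irf1 complete a count, and were named after their values were seen. Il6, Csf2 and Il10 are named as untested. The 7 genes and all lists were chosen with earlier results of these data known. Names and promoters come from RefSeq tables of GRCr8, used with no coordinates of the authors' build. Alternatives covered scaling, filter, pseudocount, replicate block, variance settings and leaving out each library.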

Additional observations from a re-analysis of the deposited data

How the results depend on the processing

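Over 18 settings the rank of the p-value was 17 to 63 for Zfp36 and 17 to 87 for Btg2. Counts of the 7 genes at an unadjusted p under 0.05 (chosen, like the left-out values of lists, after seeing the data) stayed at 2, and at an adjusted p under 0.05 at 0, in limma under every alternative run. The 3 genes called over all genes were 3 to 6 with each library left out in turn, with 6 without DMSO replicate 1 and 6 without DMSO replicate 3; the cause was not tested. Over all 18 settings the log2 fold change of Zfp36 ran from -0.93 to -0.68 (limma adjusted p 0.21 to 1.00) and that of Btg2 from -0.67 to -0.51 (0.202 to 1.00). Btg1 changed sign with library-size scaling (0.0228) and lay between -0.0409 and 0.0327 with single libraries left out. The other 117 of 119 values of the 7 genes under alternatives kept their sign and side of the threshold, as did all 30 of the paralog ratios, which cannot pass it. With single libraries left out those ratios spanned -0.958 to -0.684 for Zfp36, -0.627 to -0.486 for Btg2 and 0.0374 to 0.536 for Tob1.

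With the replicate block 2 genes were called over all genes, 0 of them among the 7, and 2 of the 7 had an unadjusted p under 0.05. The correlation of deviations between libraries of one number was -0.29, 0.054 and -0.092, so the numbers are not taken to pair the samples. The highest correlation, 0.38, was that of blebbistatin replicate 1 with DMSO replicate 3. This pair also had the smallest median absolute log2 difference of all pairs, 0.089 over genes above 1 CPM in both. That difference was 0.17 to 0.24 between blebbistatin libraries and 0.20 to 0.44 between DMSO libraries. Why libraries of opposite groups were so alike was not tested. The planned count test on recovered reads was not run, because the CPM steps do not give whole reads for all genes.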

Other observations

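The steps of the CPM values were uneven. In every library the commonest low value was 4 steps, and of the values from 1 to 24 steps 34.6 to 37% were multiples of 4, where an even spread would give 25%. Counted in units of 4 steps, the libraries hold 14.9 to 15.8 M units.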
